A study of Mus musculus with 8 samples.

Results

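Flg, Flg2, Hrnr, Rptn, Tchh, Tchhl1 and Crnn encode the S100 fused-type proteins related to filaggrin. They were taken by symbol, matched to the Ensembl identifiers of the count files, and make up 7 of the 54232 gene identifiers measured. RNA sequencing was done on total RNA of epidermis scraped from the shaved backs of female mice that lacked REDD1 (encoded by Ddit4, a stress-induced inhibitor of mTORC1 signalling) or were wild type. All mice shared 1 F1 background of C57Bl and 129. The groups were 1 knockout and 1 wild-type library of skin given fluocinolone acetonide (FA, a topical glucocorticoid; 2 ug) 1 h before the phorbol ester TPA (an irritant and tumour promoter; 4 ug), 1 knockout and 1 wild-type library of skin given TPA, and 2 knockout and 2 wild-type libraries of skin given the acetone vehicle (200 ul). Skin was taken 24 h after TPA. The sources used here do not give the knockout allele, the age of the mice, the number of mice in each library, or whether skin given TPA or vehicle alone also received an acetone pretreatment. The question for these genes was how an irritant, a glucocorticoid given before it, and the loss of REDD1 alter them.

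S100 fused-type proteins start with a calcium-binding S100-like domain and continue into a long, mostly repetitive chain. Their genes form part of the epidermal differentiation complex and are switched on as keratinocytes leave the basal layer and cornify. Profilaggrin, the product of Flg, is stored in keratohyalin granules, is cut into filaggrin units that bundle keratin filaments, and is finally broken down to the amino acids that keep the cornified layer moist. Filaggrin-2 and hornerin lie in the same granules, repetin is a precursor of the cornified envelope, trichohyalin hardens the inner root sheath and medulla of the hair follicle, and cornulin is best known from squamous mucosa. TPA activates protein kinase C, and mouse skin responds to it with inflammation and thickening of the epidermis.

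Library totals ranged from 16874233 to 22560098 counts, so that the limit a count of 0 allows, 3 counts, lay between 0.135 and 0.191 CPM (the scale is library size, normalised by TMM). Floors and intervals cover counting error only. Ddit4 had 7.24, 4.44, 18.8 and 18.6 CPM in the knockout FA+TPA, TPA and vehicle libraries, against 90.2, 64.2, 127.9 and 116.8 CPM in the matching wild-type libraries, and the knockout difference over all treatments was -3.16 ± 0.18 (log2 fold change ± SE, edgeR adjusted p = 1.2e-05). The 8 keratinocyte markers were present in every library, with a summed level of 37700 to 41184 CPM under FA+TPA, 26219 to 31195 CPM under TPA and 28213 to 33959 CPM in vehicle skin. The 6 fibroblast markers summed to 262.6 to 348.5, 385.8 to 512.3 and 620.1 to 1166 CPM in the same order, the 5 skeletal muscle markers to 93.6 to 104.9, 16.1 to 29.6 and 4.96 to 161.2 CPM, and the 6 neutrophil markers, whose defining gene Ly6g was at 0 in 7 of 8 libraries, to 107.6 to 197.7, 395.6 to 929.6 and 3.84 to 14.6 CPM. The neutrophil sum is that of S100a8, S100a9, Csf3r, Cxcr2, Ly6g and Retnlg, and it does not count neutrophils. The part of all these markers in the differences reported here was not tested. The noncoding transcript Gm26917 took 16.8% to 24.2% of the counts in the 4 treated libraries and 8.34% to 13.8% in vehicle libraries. In bulk RNA, fewer cells of a type and less RNA per cell cannot be told apart. Because nothing in the labels says that the libraries came from separate animals, p-values measure the spread between these libraries, which may be technical.

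All 7 genes lay on the plus strand of chromosome 3 within 327.2 kb (mm10). In order along the chromosome, Crnn (ENSMUSG00000078657) ran from 93144787 to 93149819, Flg2 (ENSMUSG00000049133) from 93197278 to 93221391, Flg (ENSMUSG00000102439) from 93273523 to 93293686 and Hrnr (ENSMUSG00000041991) from 93319749 to 93333570. Rptn (ENSMUSG00000041984) followed from 93393699 to 93399442, Tchh (ENSMUSG00000052415) from 93442330 to 93449077 and Tchhl1 (ENSMUSG00000027908) from 93468754 to 93471980. All are annotated as protein coding, with exons that join to 20803 bases in Flg2, 18829 in Flg, 11187 in Hrnr, 5823 in Tchh, 4146 in Rptn, 2066 in Tchhl1 and 1865 in Crnn. GENCODE marks Flg and Flg2 with a reference genome error, so their annotated lengths are uncertain. The transcript Gm37857 overlaps 45 exonic bases of Rptn on the same strand and had 0 to 53 counts per library, while Rptn itself had 27 to 9650.

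The size of the repeat domains shows in the transcripts themselves. Of all 100-base stretches in the longest annotated transcript, 71.3% occurred more than once within that transcript in Flg, 67.3% in Hrnr and 55.5% in Flg2. In Tchh the share was 2.43%, and in Rptn, Tchhl1 and Crnn it was 0. At 50 bases the shares were 79.2% in Flg, 69.1% in Hrnr, 65.3% in Flg2, 10.1% in Tchh and 5.49% in Rptn. None of these stretches of any of the 7 genes was found in a transcript of another gene at either length. A read from such a repeat aligns at more than 1 place in its own gene, and the sources used here do not say how the counting treated such reads. Where they were dropped, the levels of Flg, Flg2 and Hrnr per kilobase are understated relative to the other 4 genes, while differences between libraries within 1 gene use the same rule throughout.

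**Figure D1:**
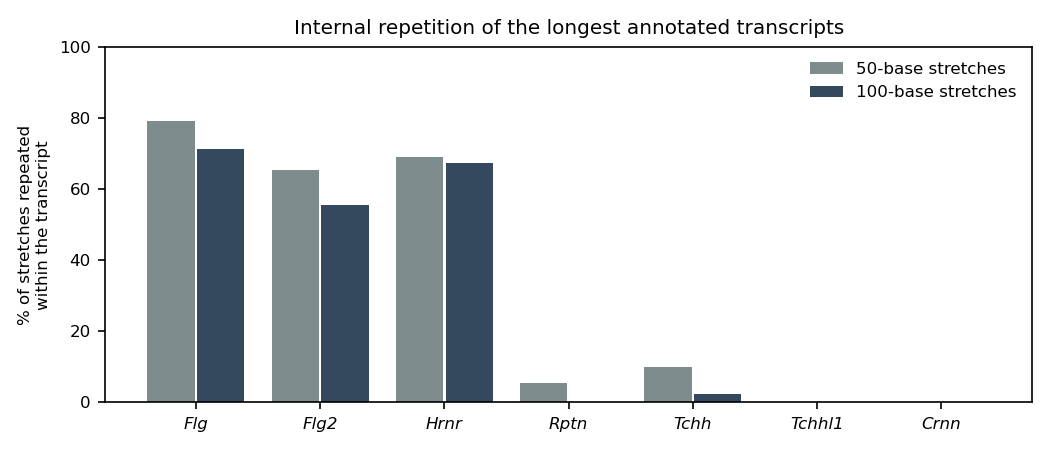
Share of 50-base (grey) and 100-base (dark) stretches that occur more than once within the longest annotated transcript of each gene, in percent of all stretches. Flg, Hrnr and Flg2 reach 55.5% to 79.2%, while Rptn and Tchh stay at 10.1% or less and Tchhl1 and Crnn are at 0.

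The 250 bases before the RefSeq start of each gene (GRCm38.p6, plus strand) are shown for 6 of the genes, because 5 of them hold the same short element at a similar distance, and Hrnr is shown as a member without it; Tchh holds none either. Capitals mark matches to TGANTCA, which reads the same on both strands as a pattern. This pattern takes in TGACTCA, the consensus of AP-1 factors, but no window of the 7 genes holds TGACTCA on either strand, against 4.46% of all windows. The windows are chr3:93273296-93273545 for Flg, chr3:93197023-93197272 for Flg2, chr3:93319499-93319748 for Hrnr, chr3:93393449-93393698 for Rptn, chr3:93468504-93468753 for Tchhl1 and chr3:93144539-93144788 for Crnn. The GENCODE start of Flg lies 23 bases before the end of its window.
Flg: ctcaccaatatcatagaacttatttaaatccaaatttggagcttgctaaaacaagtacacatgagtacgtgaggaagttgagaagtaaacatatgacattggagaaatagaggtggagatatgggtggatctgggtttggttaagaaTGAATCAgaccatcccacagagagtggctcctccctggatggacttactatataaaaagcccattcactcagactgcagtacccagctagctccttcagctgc
Flg2: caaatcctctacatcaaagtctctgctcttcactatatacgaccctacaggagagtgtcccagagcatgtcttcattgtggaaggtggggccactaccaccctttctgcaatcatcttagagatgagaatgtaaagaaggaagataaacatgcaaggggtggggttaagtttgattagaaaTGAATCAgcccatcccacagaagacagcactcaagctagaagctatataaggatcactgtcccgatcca
Hrnr: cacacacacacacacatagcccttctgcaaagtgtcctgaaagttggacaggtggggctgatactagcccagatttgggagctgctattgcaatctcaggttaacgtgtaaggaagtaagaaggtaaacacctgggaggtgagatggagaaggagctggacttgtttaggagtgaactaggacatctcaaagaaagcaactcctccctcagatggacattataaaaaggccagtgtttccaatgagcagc
Rptn: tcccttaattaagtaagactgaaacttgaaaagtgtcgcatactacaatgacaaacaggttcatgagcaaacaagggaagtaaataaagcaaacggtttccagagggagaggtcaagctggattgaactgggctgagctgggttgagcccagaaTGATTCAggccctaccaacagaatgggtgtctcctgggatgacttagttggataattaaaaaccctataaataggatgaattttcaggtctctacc
Tchhl1: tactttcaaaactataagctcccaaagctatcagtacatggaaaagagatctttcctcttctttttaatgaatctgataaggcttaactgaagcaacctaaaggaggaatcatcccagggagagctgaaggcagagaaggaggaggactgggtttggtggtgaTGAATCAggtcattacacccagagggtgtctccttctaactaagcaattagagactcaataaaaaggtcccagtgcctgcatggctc
Crnn: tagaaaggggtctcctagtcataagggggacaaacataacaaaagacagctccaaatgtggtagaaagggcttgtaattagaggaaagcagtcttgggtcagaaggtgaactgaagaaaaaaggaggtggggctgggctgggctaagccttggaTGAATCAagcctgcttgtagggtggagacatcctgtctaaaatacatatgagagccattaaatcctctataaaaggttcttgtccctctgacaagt

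TGANTCA was found in 5 of the 7 windows and in 6.75% of 32851 RefSeq windows of the same length. It lay 103 to 97 bases before the start of Flg, 96 to 90 before Rptn and Crnn, 87 to 81 before Tchhl1 and 69 to 63 before Flg2. The match read TGAATCA in Flg, Flg2, Tchhl1 and Crnn and TGATTCA, its reverse complement, in Rptn. TGAATCA on either strand occurs in 2.43% of all windows. With 1 more base on its left, as ATGAATCA, it was shared by Flg, Flg2, Tchhl1 and Crnn and occurs in 0.743% of all windows on either strand, a form chosen after the sequences were seen. TATAAA, the TATA box, was found on the plus strand 31 to 26 bases before the starts of Hrnr and Rptn, 29 to 24 before Crnn and 53 to 48 before Flg, and occurs on either strand in 12.4% of all windows. The palindromic glucocorticoid response element, AGAACA and TGTTCT with 3 bases between them, was in none of the 7 windows and in 0.00913% of all windows. These matches describe letters in a window and do not show a bound site. The 7 are related, neighbouring genes, so their windows are not independent of each other as a draw from all windows would be. The 5 genes with TGANTCA did not move alike: with TPA, Rptn and Tchhl1 rose, Flg2 fell, and Flg and Crnn did not pass the test.

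**Figure D2:**
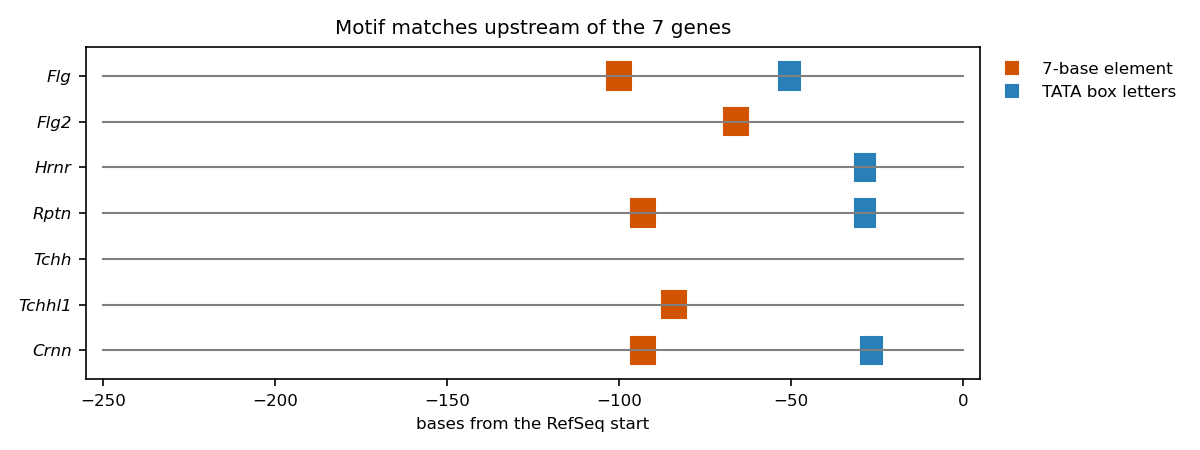
Matches to the 7-base element marked in the sequences (orange) and to the TATA box letters (blue) in the 250 bases before the RefSeq start of each gene, with distance from the start in bases on the horizontal axis. The 7-base element lies between 103 and 63 bases before the start in 5 of the 7 genes, and Hrnr and Tchh hold none.

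Levels are compared between genes per kilobase of joined exons. In vehicle skin Flg2 was the most abundant of the 7, at 461.8 ± 59.9 CPM per kb in knockout and 484.9 ± 67.4 CPM per kb in wild type (SD, n = 2 each). Hrnr followed at 102.4 ± 2.17 CPM per kb in knockout and 99.2 ± 24.3 CPM per kb in wild type, and Flg at 36.0 ± 5.37 and 20.4 ± 4.31 CPM per kb (SD, n = 2 each). The 3 keratohyalin genes thus kept 1 order in both genotypes, with no overlap between neighbouring genes across the 4 vehicle libraries. Rptn came next in knockout at 2.58 ± 1.88 CPM per kb, while in wild type, at 0.396 ± 0.0396 CPM per kb, it lay below Tchh (SD, n = 2 each). Tchh had 0.715 ± 0.135 CPM per kb in knockout and 0.652 ± 0.106 CPM per kb in wild type, and all 4 of its libraries lay between the Rptn libraries of wild type and those of knockout. Crnn had 0.222 ± 0.0648 and 0.117 ± 0.0483 CPM per kb, and Tchhl1 0.0559 ± 0.0170 and 0.0250 ± 0.0354 CPM per kb (SD, n = 2 each). Tchhl1, with 3 and 2 counts in knockout and 0 and 2 counts in wild-type vehicle libraries, was at or under the limit that a count of 0 allows.

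The order by this measure changed under treatment. Under FA+TPA, Flg2 had 440.1 CPM per kb in knockout and 566 CPM per kb in wild type, Hrnr 270.1 and 321.1, and Flg 87.1 and 123.4. Under TPA, Flg2 had 196.5 CPM per kb in knockout and 228.1 in wild type, close to Hrnr at 161.8 and 223.2 CPM per kb. Within each of the TPA libraries Flg2 thus stood above Hrnr by a much smaller margin than in vehicle skin, and the Hrnr level of the wild-type library exceeded the Flg2 level of the knockout library. Rptn, at 57.2 CPM per kb in knockout and 143.3 in wild type under TPA, ranked above Flg, at 27.1 and 58.8 CPM per kb, in both genotypes. Under FA+TPA it ranked below Flg again, at 41.6 and 31.4 CPM per kb. These orders depend on how reads from repeats were counted. A limiting case, chosen after the data were seen, divides all counts of a gene by its length outside the repeated 100-base stretches. It holds only if every read from those stretches was dropped, which is not known. The repeated share was taken from the longest annotated transcript. In that case Flg under TPA would have 94.2 CPM per kb in knockout and 204.5 in wild type, above Rptn, which has no such stretches. Hrnr, at 494.2 and 681.8, would stand above Flg2, at 441.4 and 512.4 CPM per kb, under TPA. Both orders of the TPA libraries would then turn.

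**Figure D3:**
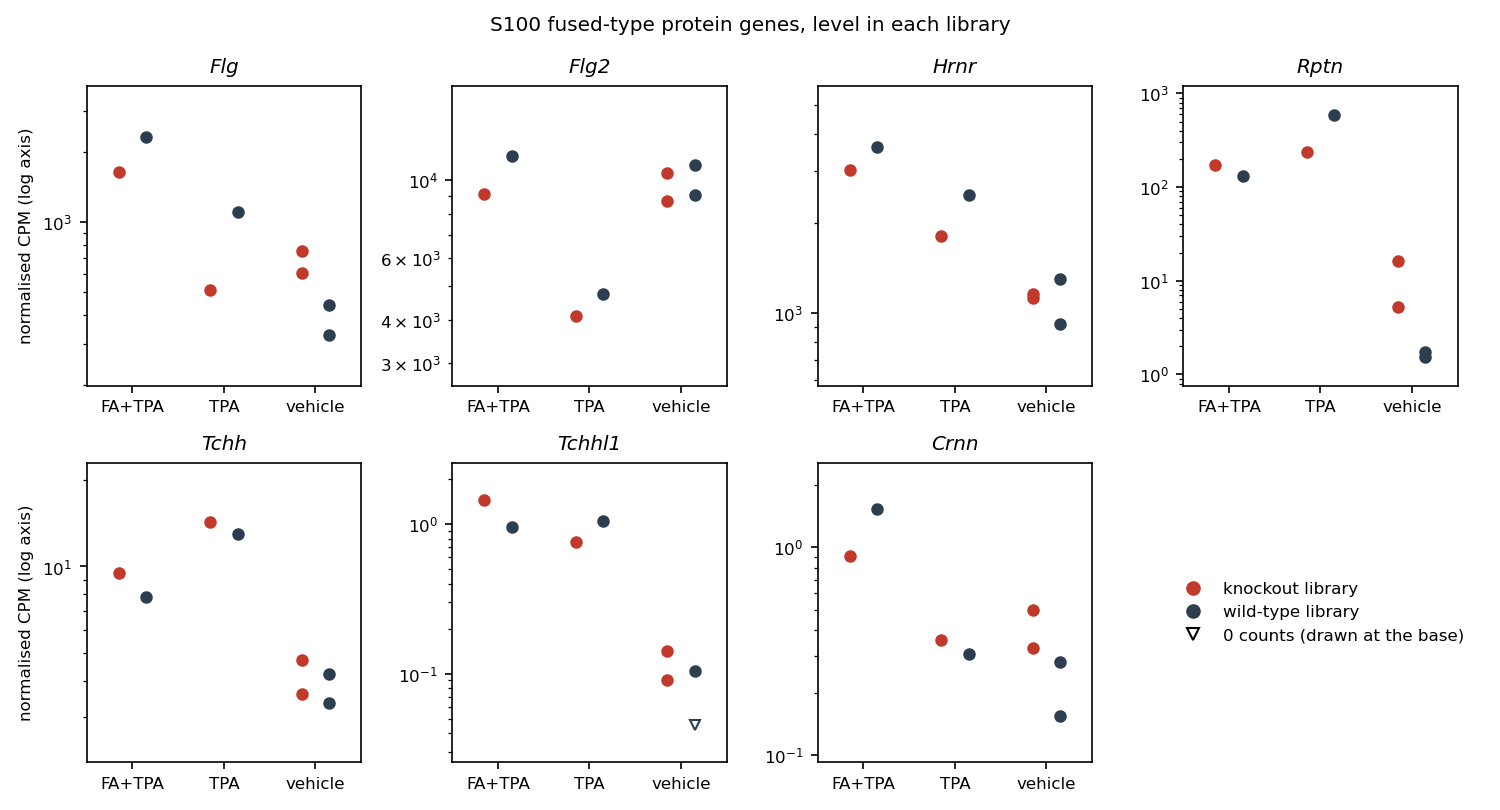
Level of each gene in every library, in normalised CPM on a log axis with its own range per panel, for FA+TPA, TPA and vehicle; red points are knockout and dark points wild-type libraries, and an open triangle marks a library with 0 counts. Flg2 dips under TPA, Rptn, Tchh and Tchhl1 are lowest in vehicle skin, and Flg is higher in knockout than in wild type in vehicle skin but lower in knockout under TPA and FA+TPA.

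The response to TPA was tested against vehicle over both genotypes. TPA split the family. The envelope precursor Rptn rose most, about 77.6-fold, Tchhl1, Tchh and Hrnr rose, Flg2 fell to less than its level in any vehicle library, and Flg and Crnn did not pass the test. Thus 4 of 7 genes were called higher and 1 lower by edgeR, against 23.2% and 22.7% of all 19251 genes tested (46.0% in either direction). Both TPA libraries were above all vehicle libraries for Hrnr, Rptn, Tchh and Tchhl1, a pattern that 28.0% of all genes showed, and below all of them for Flg2, as for 29.0% of all genes. The median log2 difference was 0.92 over the 7 genes and -0.03 over all genes tested. All 7 passed the low-count filter, but Tchhl1 did so through the TPA and FA+TPA libraries and Crnn through the FA+TPA libraries alone. Tchhl1, which is high in those treated libraries, therefore carries no weight in this count, pattern or median. With library size as the sole scaling, the median of all genes moved to -0.25, and 2847 genes were called higher and 6429 lower, in place of 4474 and 4379.

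Of the keratohyalin genes, Flg2 had 4087 CPM in the knockout and 4744 CPM in the wild-type TPA library, against 10488 and 8725 CPM in knockout and 9097 and 11079 CPM in wild-type vehicle libraries. Both TPA libraries lay far below all 4 vehicle libraries. The difference was -1.16 ± 0.14 (edgeR adjusted p = 5.57e-05). Hrnr had 1810 CPM in the knockout and 2497 CPM in the wild-type TPA library, against 1163 and 1128 CPM in knockout and 917.9 and 1302 CPM in wild-type vehicle libraries. It was higher in both TPA libraries than in any vehicle library, by 0.92 ± 0.15 (edgeR adjusted p = 0.000489). Flg had 509.6 CPM in the knockout and 1106 CPM in the wild-type TPA library, against 606.9 and 749.9 CPM in knockout and 441.8 and 327 CPM in wild-type vehicle libraries. The groups overlapped, because the wild-type library under TPA was above all vehicle libraries and the knockout library was below both knockout vehicle libraries. The difference over both genotypes was 0.61 ± 0.35 (edgeR adjusted p = 0.18), although it passed with 1 mean per group (0.56, edgeR adjusted p = 0.0128) and without the low-count filter (edgeR adjusted p = 0.00122), with -0.21 when the wild-type TPA library was left out and 1.33 when the knockout one was (edgeR adjusted p = 0.0114).

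Rptn had 237.3 CPM in the knockout and 594.1 CPM in the wild-type TPA library. In vehicle skin it had 5.20 and 16.2 CPM in knockout and 1.52 and 1.76 CPM in wild type. Both TPA libraries stood far above the 4 vehicle libraries, and the wild-type TPA library was the highest of all 8. The difference was 6.28 ± 0.66 (edgeR adjusted p = 2.97e-05), or 4.80 when the wild-type TPA library was left out, 7.60 without the knockout TPA library and 7.16 without knockout vehicle replicate 2. Repetin is a calcium-binding precursor that transglutaminases fasten into the envelope. Tgm1 and Tgm3, which encode such transglutaminases, also rose, by 1.16 ± 0.08 and 2.76 ± 0.25 (edgeR adjusted p = 1.55e-06 and 9.44e-06).

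Tchh, the follicle member, had 14.3 CPM in the knockout and 13.0 CPM in the wild-type TPA library, against 3.61 and 4.72 CPM in knockout and 4.23 and 3.36 CPM in wild-type vehicle libraries. Both TPA libraries were above every vehicle library and close to each other, and the difference was 1.78 ± 0.16 (edgeR adjusted p = 8.16e-06). Tchhl1, a trichohyalin-like neighbour of Tchh, had 17 counts in the knockout and 17 in the wild-type TPA library (0.762 and 1.05 CPM), against 3 and 2 counts in knockout and 0 and 2 counts in wild-type vehicle libraries. Its fitted difference was 3.28 ± 0.57 (edgeR adjusted p = 0.000889), and the ratio of summed counts scaled for depth was 10.1, with an exact 95% interval of 4.43 to 27.1 from 34 against 7 counts. The fitted difference was 3.94 without the knockout TPA library. All of these Tchhl1 values are limited by its entry into the test through the treated libraries alone. Crnn had 8 counts in the knockout and 5 in the wild-type TPA library, against 7 and 11 counts in knockout and 5 and 3 counts in wild-type vehicle libraries, and did not differ detectably at this depth (0.06 ± 0.56, edgeR adjusted p = 0.937).

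Most keratins of the inner root sheath were too low to test. Krt25, Krt26, Krt27, Krt71, Krt72, Krt73 and Krt74 had 0 to 10 counts per library and did not enter the test, nor did Padi3, the gene of the deiminase that modifies trichohyalin. Krt27 had 6 counts in the knockout and 8 in the wild-type TPA library, against 5 and 5 counts in knockout and 1 and 3 counts in wild-type vehicle libraries. The 10 hair shaft and inner root sheath markers in the files summed to 0.986 to 1.85 CPM under TPA and 1.14 to 1.86 CPM in vehicle skin, with 3 or 4 of them at 0 in each library and Krt34 at 0 in all 8. Of the 7 tested among 15 listed genes of the inner root sheath and medulla, 2 were called higher and 1 lower with TPA, with a median of 0.03. These were Krt75, a keratin of the companion layer that had 93.97 and 113.9 CPM under TPA against 6.38 to 12.2 CPM in vehicle skin (3.30 ± 0.19, edgeR adjusted p = 5.76e-07), Tgm3, and Msx2, a homeobox gene (-0.79 ± 0.26, edgeR adjusted p = 0.0263), whose call ended in 3 of 16 alternatives.

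**Figure D4:**
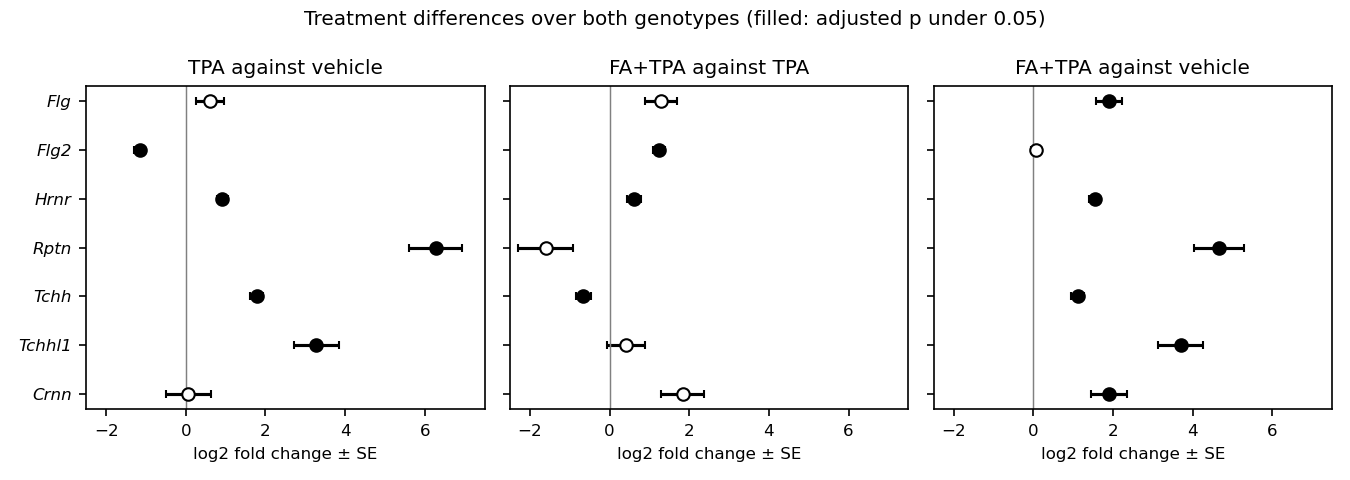
Log2 fold change ± SE of each gene over both genotypes for TPA against vehicle, FA+TPA against TPA and FA+TPA against vehicle; filled points have an edgeR adjusted p under 0.05. Flg2 is the member that fell with TPA and was higher again with FA+TPA, at 1.24 ± 0.15 against TPA and 0.08 ± 0.13 against vehicle, and Rptn has the widest error bars. The comparisons share libraries.

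Genes that act on these proteins moved as well. Of 21 genes tested for the processing and breakdown of profilaggrin, 17 were called higher with TPA and the other 4 did not pass, with a median of 0.87. Klk14, Padi1 and Padi4 would not have entered the test without treated libraries, where they are high, so their calls carry no weight in this count. The lists of this comparison stand beside 23.2% higher and 22.7% lower, and a median of -0.03, over all genes. Ctsl, a lysosomal protease, rose by 2.83 ± 0.09, Cst6, an inhibitor of such proteases, by 3.11 ± 0.13, and Klk7, a kallikrein of the cornified layer, by 1.99 ± 0.13 (edgeR adjusted p = 2.19e-08, 1.03e-07 and 1.48e-06). Of 20 cross-linking and envelope partners, 9 were called higher and 6 lower, the lower share being near that of all genes, with a median of 0.28. Besides Tgm1, Tgm3 and Cst6, the rule for naming took Krt10 and Krt77, keratins of the suprabasal layers, at -1.85 ± 0.14 and -1.61 ± 0.12, and Lor, which encodes the main envelope protein loricrin, at -1.19 ± 0.13 (edgeR adjusted p = 3.12e-06, 2.46e-06 and 3.94e-05).

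Of 21 regulators of the epidermal differentiation complex tested, 8 were called higher and 5 lower, with a median of 0.12, and here too the lower share was near that of all genes. The AP-1 subunits Junb and Fosl1 rose by 1.16 ± 0.14 and 1.26 ± 0.18, and Ovol1, a repressor of proliferation, by 0.82 ± 0.09 (edgeR adjusted p = 5.88e-05, 0.000208 and 3.38e-05). Gata3, Satb1 and Ahr, which encode a barrier transcription factor, a chromatin organiser and the aryl hydrocarbon receptor, were at -0.87 ± 0.10, -0.90 ± 0.12 and -0.75 ± 0.10 (edgeR adjusted p = 5.58e-05, 0.000124 and 0.000183). Of 10 tested among 14 cytokines listed as repressors of filaggrin, 6 were called higher and the other 4 did not pass, with a median of 1.12. Whether each of them represses Flg in this skin was not tested. Il24 and Osm entered the test only through the TPA libraries, where they are high, so their calls carry no weight in this count. Tslp rose by 3.68 ± 0.23 and Il1b by 2.61 ± 0.18 (edgeR adjusted p = 9.22e-07 and 1.68e-06), while Osm had 41 and 11 counts in the knockout and wild-type TPA libraries and 0 or 1 count in vehicle libraries.

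FA given before TPA was compared with TPA alone over both genotypes. The same TPA libraries enter the comparison with vehicle, so a fall with TPA and a rise with FA are not separate observations. Flg2 was more than 2-fold higher with FA, Hrnr was higher by less, Tchh was lower, and the remaining 4 genes did not pass the test. Thus 2 of 7 genes were called higher and 1 lower by edgeR, against 5.71% and 4.31% of all genes tested. The median log2 difference was 0.63 over the 7 genes and 0.01 over all genes. By library values, Flg, Flg2, Hrnr and Crnn were higher in both FA+TPA libraries than in either TPA library, and Rptn and Tchh lower, where 27.4% and 25.4% of all genes showed each pattern. Crnn carries no weight in this pattern or median, because it entered the test through the FA+TPA libraries alone, where it is high.

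Flg2 had 9155 CPM in the knockout and 11774 CPM in the wild-type FA+TPA library, against 4087 and 4744 CPM in the knockout and wild-type TPA libraries. The knockout FA+TPA library lay within the range of the vehicle libraries, and the wild-type one was above all of them. The difference was 1.24 ± 0.15 (edgeR adjusted p = 0.000647), and within genotypes the ratio was 2.24 in knockout and 2.48 in wild type. Hrnr had 3021 CPM in the knockout and 3593 CPM in the wild-type FA+TPA library, against 1810 and 2497 CPM under TPA, a difference of 0.63 ± 0.18 (edgeR adjusted p = 0.0473). Its FA+TPA libraries were the highest of all 8. The Hrnr call was close to the threshold and ended in 10 of 16 alternatives, among them the omission of any library except wild-type vehicle replicate 1, with edgeR, DESeq2 and voom adjusted p between 4.34e-05 and 0.368 and 0.39 as the value without the knockout TPA library.

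Flg had 1641 CPM in the knockout and 2324 CPM in the wild-type FA+TPA library, against 509.6 and 1106 CPM under TPA. Each FA+TPA library was above both TPA libraries, but the difference of 1.30 ± 0.40 missed the threshold (edgeR adjusted p = 0.0703). It was 0.66 without the knockout TPA library and 2.20 with the wild-type one left out (edgeR adjusted p = 0.0104). Flg passed in 7 of 16 alternatives, among them library size only (edgeR adjusted p = 0.0216), limma-voom (adjusted p = 0.0492), 1 mean per group (edgeR adjusted p = 0.00122), omission of the filter (edgeR adjusted p = 6.09e-08) and omission of either vehicle replicate 2 (edgeR adjusted p = 0.0417 for knockout and 0.04 for wild type). Crnn had 15 counts in the knockout and 24 in the wild-type FA+TPA library (0.905 and 1.53 CPM), against 8 and 5 counts under TPA. The ratio of summed counts scaled for depth was 3.58, with an exact 95% interval of 1.87 to 7.31 from 39 against 13 counts. The fitted difference of 1.84 ± 0.54 missed the threshold (edgeR adjusted p = 0.0588). Crnn entered the test through the FA+TPA libraries alone, where it is high, so its ratio, interval and p carry no weight.

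Rptn had 172.3 CPM in the knockout and 130.1 CPM in the wild-type FA+TPA library, against 237.3 and 594.1 CPM under TPA. Both FA+TPA libraries were below both TPA libraries, most clearly in wild type, where the ratio of FA+TPA to TPA was 0.219, against 0.726 in knockout. The difference of -1.61 ± 0.68 did not pass (edgeR adjusted p = 0.184). It was 0.14 without the wild-type TPA library and -2.67 without the knockout TPA library (edgeR adjusted p = 0.0219), and it passed with 1 mean per group (-1.33, edgeR adjusted p = 0.0314) and without the low-count filter (edgeR adjusted p = 6.74e-06). Tchh had 9.53 CPM in the knockout and 7.81 CPM in the wild-type FA+TPA library, against 14.3 and 13.0 CPM under TPA, a difference of -0.65 ± 0.18 (edgeR adjusted p = 0.0465). That call ended in 9 of 16 alternatives, including the omission of any of the 4 treated libraries or of knockout vehicle replicate 2, with adjusted p up to 0.305. Tchhl1 had 24 counts in the knockout and 15 in the wild-type FA+TPA library, against 17 and 17 counts under TPA, and the groups overlapped (0.42 ± 0.47, edgeR adjusted p = 0.66).

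Of the genes that process and break down profilaggrin, 4 of 21 were called higher and 4 lower with FA, with a median of 0.03, beside 5.71% higher and 4.31% lower over all genes. Asprv1, the retroviral-like protease that cuts the linkers of profilaggrin, was higher by 0.73 ± 0.13 (edgeR adjusted p = 0.00494), and so were the serine protease gene Prss8, by 0.41 ± 0.09, and the proprotein convertase gene Pcsk6, by 0.38 ± 0.10 (edgeR adjusted p = 0.0209 and 0.0279). The kallikrein gene Klk14 was lower, at 8 and 9 counts in the knockout and wild-type FA+TPA libraries against 68 and 91 under TPA (-2.98 ± 0.44, edgeR adjusted p = 0.00197). Klk14 entered the test through the TPA libraries alone, where it is high, so its call carries no weight. Cst6 and Lgmn, the gene of the protease legumain, were also lower (-0.77 ± 0.16 and -1.01 ± 0.24, edgeR adjusted p = 0.0108 and 0.0225). Of 20 cross-linking and envelope partners, 8 were called higher and 1 lower, with a median of 0.31. Krt10 (1.89 ± 0.15), Lor (1.51 ± 0.15) and Krt77 (1.14 ± 0.13), which had fallen with TPA as Flg2 had, were the first by p among those called higher (edgeR adjusted p = 7.32e-05, 0.000234 and 0.000413).

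Of the 21 regulators, 3 were called higher, namely the transcription factor genes Prdm1 (0.54 ± 0.11), Klf4 (0.43 ± 0.10) and Fosl1 (0.82 ± 0.20), with edgeR adjusted p of 0.0118, 0.02 and 0.0232 and a list median of 0.13. Of the 10 cytokines, 6 were called lower, with a median of -1.33, among them Il1b (-1.39 ± 0.21, edgeR adjusted p = 0.00203) and Tslp (-1.27 ± 0.24, edgeR adjusted p = 0.00772). Il24 had 0 counts in both FA+TPA libraries, against 49 and 42 counts in the knockout and wild-type TPA libraries, and 0 in vehicle libraries. Il24 and Osm entered the test through the TPA libraries alone, so their calls carry no weight among the 6. Of the 7 inner root sheath and medulla genes, Dlx3, a homeobox gene, was called higher (0.69 ± 0.11, edgeR adjusted p = 0.00287) and Krt75 lower, at 19.2 and 16.8 CPM against 93.97 and 113.9 CPM under TPA (-2.54 ± 0.24, edgeR adjusted p = 0.000178), with a median of -0.19. Of the 17 list genes named in this comparison, Krt10, Lor, Krt77, Krt75 and Il1b kept their calls in all 16 alternatives, and the others except Il24 lost theirs in 2 to 6.

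FA+TPA was also set against vehicle skin. With both agents, 6 of the 7 genes were called higher by edgeR, against 17.4% of all genes tested (31.6% in either direction), and Flg2 did not pass the test. Of the 6, Tchhl1 entered the test only through the treated libraries and Crnn only through the FA+TPA libraries, where they are high, so their calls carry no weight in this count. The other 4 stand among 5 genes that were over the filter in vehicle libraries as well. The same 6 genes had both FA+TPA libraries above all vehicle libraries, a pattern that 24.7% of all genes showed. The median log2 difference was 1.90 over the 7 genes and -0.01 over all genes. For the same reason, Tchhl1 and Crnn carry no weight in this pattern or median. This comparison shares its libraries with those above, so the values are given side by side. With library size as the sole scaling, the median of all genes was -0.23, and 1954 genes were called higher and 4980 lower, in place of 3347 and 2729.

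Flg, at 1641 and 2324 CPM in the knockout and wild-type FA+TPA libraries, was above every vehicle library, the highest of which had 749.9 CPM, and the difference was 1.90 ± 0.33 (edgeR adjusted p = 0.00158). Hrnr was higher by 1.54 ± 0.15 (edgeR adjusted p = 3.1e-05), and its level in the FA+TPA libraries exceeded that in the vehicle libraries in both genotypes, with ratios of 2.64 in knockout and 3.24 in wild type. Flg2 differed by 0.08 ± 0.13 (edgeR adjusted p = 0.68), and its libraries overlapped. Rptn was higher by 4.67 ± 0.62 (edgeR adjusted p = 0.000301), or 5.70 without knockout vehicle replicate 2. Tchh was higher by 1.12 ± 0.17 (edgeR adjusted p = 0.000542).

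Tchhl1 was higher by 3.70 ± 0.56 (edgeR adjusted p = 0.00062), with 24 and 15 counts in the knockout and wild-type FA+TPA libraries against 0 to 3 counts in vehicle libraries. The ratio of its summed counts scaled for depth was 13.9, with an exact 95% interval of 6.14 to 36.8. The difference, p, ratio and interval of Tchhl1 are limited by its entry through the treated libraries alone. Crnn differed by 1.91 ± 0.45 (edgeR adjusted p = 0.00889), with 15 and 24 counts against 3 to 11 counts in vehicle libraries, and this p is limited by its entry through the FA+TPA libraries alone. The depth-scaled ratio of Crnn was 3.74, with an exact 95% interval of 2.22 to 6.39. Because of that entry, the ratio, interval and p of Crnn carry no weight. The Crnn call ended without the wild-type FA+TPA library (1.20, edgeR adjusted p = 0.237), and without the knockout FA+TPA library the value was 2.62. The 3 markers of oral or forestomach epithelium, where cornulin is abundant, summed to 2.35 to 3.11 CPM under FA+TPA and 0.408 to 1.76 CPM in vehicle skin, and their part in the Crnn difference was not tested.

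Among the genes that process profilaggrin, 16 of 21 were called higher against vehicle and the other 5 did not pass, with a median of 1.05, beside 17.4% higher and 14.2% lower over all genes. Klk14, Padi1 and Padi4, which would not have entered the test without treated libraries, carry no weight in this count. Besides Ctsl (2.39 ± 0.09) and Cst6 (2.33 ± 0.13), Blmh, the hydrolase that completes the breakdown of filaggrin, rose by 1.79 ± 0.12 (edgeR adjusted p = 1.74e-07, 1.34e-06 and 4.26e-06). Of the 20 cross-linking and envelope partners, 13 were called higher and 3 lower, with a median of 0.56. Ivl, which encodes the envelope protein involucrin, rose by 1.89 ± 0.16 and Tgm1 by 1.22 ± 0.08 (edgeR adjusted p = 1.37e-05 and 3.07e-06), while Krt77, Dsg1a, a desmosomal cadherin gene, and Krt2, a keratin gene of the upper epidermis, were at -0.47 ± 0.11, -0.48 ± 0.14 and -1.03 ± 0.34 (edgeR adjusted p = 0.00889, 0.0225 and 0.0379). The calls of Krt77, Dsg1a and Krt2 ended in 2 to 6 alternatives.

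Of the 21 regulators, 9 were called higher and 5 lower, with a median of 0.25, led by Ovol1 (1.14 ± 0.09), Fosl1 (2.08 ± 0.17) and Prdm1 (1.04 ± 0.09) on the higher side and Ahr (-0.81 ± 0.10), Satb1 (-0.75 ± 0.12) and Gata3 (-0.59 ± 0.10) on the lower (edgeR adjusted p between 9.64e-06 and 0.00131). Of the 10 cytokines, 3 were called higher and 1 lower, with a median of 0.26. The lower call, of Il4, carries no weight here, because Il4 entered the test only through the vehicle libraries, where it is high. Tslp, Il1a and Il1b were higher by 2.41 ± 0.26, 0.96 ± 0.12 and 1.22 ± 0.20 (edgeR adjusted p = 7.28e-05, 0.000184 and 0.00115), and Il4, with 4 and 3 counts in the knockout and wild-type FA+TPA libraries against 6 to 17 in vehicle libraries, was lower (-1.56 ± 0.54, edgeR adjusted p = 0.0477), a call that ended in 11 of 15 alternatives. The inner root sheath and medulla genes Tgm3 (1.90 ± 0.25), Dlx3 (0.65 ± 0.09) and Krt75 (0.76 ± 0.21) were called higher, 3 of 7 tested, with a median of 0.31 (edgeR adjusted p = 0.000301, 0.000426 and 0.0186). The Krt75 call ended in 2 of 16 alternatives (adjusted p up to 0.157).

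**Figure D5:**
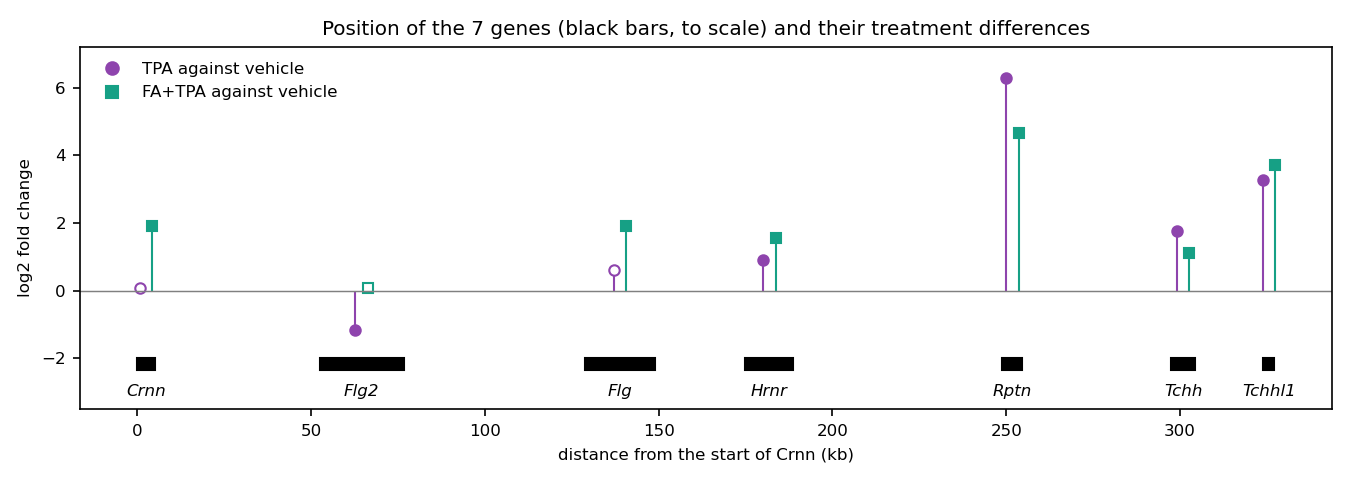
Position of the 7 genes on chromosome 3 as distance from the start of Crnn in kb (black bars, to scale), with the log2 fold change of TPA against vehicle (circles) and FA+TPA against vehicle (squares) above or below each gene; open symbols did not pass the test. Rptn has the highest values of the 7, at 6.28 and 4.67, Flg2 is the member below 0, at -1.16 with TPA, and the genes next to Flg2, Crnn and Flg, did not pass the test with TPA.

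Loss of REDD1 was examined over all treatments, in vehicle skin, and as a difference in each response. Over all treatments, none of the 7 genes was called by edgeR, against 3.58% of all genes tested (1.98% higher and 1.60% lower), and none of them by DESeq2 or limma-voom or at an unadjusted p under 0.05. The differences ran from -0.18 ± 0.10 in Flg2 (edgeR adjusted p = 0.464) to 0.55 ± 0.57 in Rptn (edgeR adjusted p = 0.735), with Flg at 0.01 ± 0.29 (edgeR adjusted p = 0.996). Of the list genes, Lor (-0.51 ± 0.10, edgeR adjusted p = 0.0228) and Il1a (-0.48 ± 0.10, edgeR adjusted p = 0.0297) were called lower in knockout, and both are named here because their values were seen. The list medians ran from -0.23 to 0.29, and the median of all genes was -0.01. With library size as the sole scaling, 639 genes were called higher and 233 lower in knockout, in place of 382 and 308.

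In vehicle skin, Flg and Rptn were higher in knockout than in wild type. That is 2 of 7 genes called higher by edgeR, against 1.44% of all genes tested (2.17% in either direction). Flg had 606.9 and 749.9 CPM in knockout vehicle libraries, against 441.8 and 327 CPM in wild-type vehicle libraries, or 678.4 ± 101.1 and 384.4 ± 81.2 CPM (SD, n = 2 each). The groups did not overlap, and the difference was 0.82 ± 0.18 (edgeR adjusted p = 0.0448). The call was lost without knockout vehicle replicate 2 (0.66, edgeR adjusted p = 0.22) and with a minimum count of 50 (edgeR adjusted p = 0.0765). Rptn had 5.20 and 16.2 CPM in knockout vehicle libraries, against 1.52 and 1.76 CPM in wild-type vehicle libraries, or 10.7 ± 7.80 and 1.64 ± 0.164 CPM (SD, n = 2 each). The groups did not overlap, but the knockout libraries differed from each other by more than the wild-type libraries did. The Rptn difference was 2.70 ± 0.48 (edgeR adjusted p = 0.0205), or 1.66 without knockout vehicle replicate 2 and 3.30 without knockout vehicle replicate 1, and it missed the threshold with a minimum count of 50 (edgeR adjusted p = 0.0544) and with limma-voom (adjusted p = 0.0841).

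Knockout vehicle replicate 2 also had the highest summed level of neutrophil markers among vehicle libraries, 14.6 CPM against 3.84 to 5.95 CPM in the others, and of fibroblast markers, 1166 CPM against 620.1 to 782.5 CPM. Skeletal muscle markers summed to 161.2 and 49.7 CPM in the knockout and to 19.1 and 4.96 CPM in the wild-type vehicle libraries. The part of these markers in the Flg and Rptn differences was not tested. The other 5 genes did not pass. Flg2 had 9607 ± 1246 CPM in knockout and 10088 ± 1402 CPM in wild type, Hrnr 1146 ± 24.3 and 1110 ± 271.4 CPM, and Tchh 4.16 ± 0.785 and 3.80 ± 0.619 CPM (SD, n = 2 each). Crnn was higher in both knockout libraries, with 7 and 11 counts against 5 and 3 in wild type, a pattern of no overlap that 19.7% of all genes showed (and 20.1% the opposite), and its difference of 0.92 ± 0.63 did not pass (edgeR adjusted p = 0.707).

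Of the 7 genes, Flg and Rptn gave the smallest p for a genotype difference in the response to TPA, but neither passed after adjustment. For Flg the ratio of TPA to vehicle was 0.751 in knockout and 2.88 in wild type, and for Rptn it was 22.2 in knockout and 362.2 in wild type. The wild-type ratio of Rptn rests on 27 and 34 counts in its vehicle libraries. The difference of the responses was -1.94 ± 0.31 for Flg and -4.03 ± 0.68 for Rptn on the log2 scale, ranking 12 and 16 by p among 19251 genes. These values are not separate from the knockout difference in vehicle skin, which they take in, at 0.82 for Flg and 2.70 for Rptn. Neither passed the test (edgeR adjusted p = 0.134 and 0.156), although both did when any 1 vehicle library was left out, which leaves 1 residual degree of freedom (edgeR adjusted p between 4.27e-26 and 0.00291). At an unadjusted p under 0.05 they were the 2 members found, against 5.27% of all genes. DESeq2 called Flg (adjusted p = 4.72e-07) and not Rptn (adjusted p = 0.233), and limma-voom called neither. Over all genes 0.00519% were called by edgeR, which is 1 gene, Lgals4 (-2.57 ± 0.26, edgeR adjusted p = 0.0326), which encodes a galectin and is named because its value was seen.

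The other 5 genes responded to TPA with similar ratios in both genotypes or with too few counts to tell. Tchh had a ratio of TPA to vehicle of 3.43 in knockout and 3.42 in wild type, Flg2 of 0.426 and 0.470, and Hrnr of 1.58 and 2.25. Their differences of response were -0.51 ± 0.31 for Hrnr and -0.14 ± 0.32 for Flg2 (edgeR adjusted p = 1 for both). These interactions rest on 1 TPA library of each genotype, which were assumed to vary like the vehicle pairs, so a genotype difference and a difference between these 2 libraries cannot be told apart. Among markers, the wild-type TPA library had 929.6 CPM of summed neutrophil markers and the knockout TPA library 395.6 CPM, and their part in the Flg and Rptn values was not tested. Of these markers, Ly6g was at 0 in the wild-type TPA library and was detected in the knockout one.

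For the effect of FA on TPA-treated skin, none of the 7 genes differed between genotypes by edgeR, DESeq2 or limma-voom, and 0.00% of all genes were called by edgeR. At an unadjusted p under 0.05, Rptn was the 1 member found, against 3.18% of all genes, with a difference of 1.73 ± 0.65 (edgeR adjusted p = 0.9999). It passed when any 1 vehicle library was left out, with 1 residual degree of freedom (edgeR adjusted p between 1.1e-06 and 0.0105). Flg had a ratio of FA+TPA to TPA of 3.22 in knockout and 2.10 in wild type, a difference of 0.62 ± 0.35 (edgeR adjusted p = 0.9999). Compared with vehicle skin, Flg under FA+TPA was at a ratio of 2.42 in knockout and 6.05 in wild type.

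The genes with the most similar pattern to each member were sought by Pearson's r of log2 CPM over the 8 libraries among 10723 genes whose log2 CPM averaged 2 or more. The libraries share their treatments, which sets much of each r. For Flg these were Nsg1 (r = 0.982), Clpb (0.973) and Rpia (0.965). For Flg2 they were Agpat5 (0.995), Tmem131 (0.99) and Chmp4c (0.988), and for Hrnr Gramd3 (0.994), Nipal4 (0.992) and Lgalsl (0.992). For Rptn they were Bglap3 (0.995), Pla2g4e (0.995) and Sgo2a (0.994). For Tchh they were Calm3 (0.994), Bccip (0.994) and Dhx38 (0.993), for Tchhl1 Lrrc28, Mxd3 and Slc30a1 (each 0.986), and for Crnn Hadhb (0.968), Dusp13 (0.958) and Rpia (0.954). Rpia was the gene named for both Flg and Crnn. Genes were also counted over 1 limit of r, the same for all members and lower than every r given above. Far more genes passed it with Tchh (1415), Rptn (1180) and Tchhl1 (934) than with Flg (43) and Crnn (26). Hrnr (415) and Flg2 (168) lay between. The names given for Tchh, Rptn and Tchhl1 are therefore less particular to them. For Tchhl1 and Crnn, r rests on 0 to 24 counts per library. Agpat5, the gene most like Flg2, had 46.9 and 59.5 CPM in the knockout and wild-type TPA libraries, against 100.8 to 132.5 CPM in the 4 vehicle libraries.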

How the data were processed

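RNA sequencing of 8 epidermis libraries was analysed, with groups and replicate numbers taken from the labels. The submitters' processing notes name Trim Galore, STAR, HTSeq and the genome build mm10, and the deposited files hold raw counts per Ensembl gene and library. The sources used here do not give versions, annotation, strand setting or the handling of reads that align more than once, so reads of overlapping or antisense genes cannot be separated. Totals were 16874233 to 22560098 counts. Of 54232 identifiers, 54079 matched a symbol in the GENCODE vM21 annotation and 153 did not.

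Tests used the quasi-likelihood F test of edgeR 4.0.16 (R 4.3.3) on TMM-normalised counts, with factors from 0.86 to 1.10. The filter (filterByExpr by treatment, minimum count 10) kept 19251 genes, and p-values were adjusted over all of them by the Benjamini-Hochberg method at 0.05. An additive fit of genotype and treatment, with 4 residual degrees of freedom, gave the treatment comparisons and the knockout difference over all treatments. A fit of 1 mean per group gave the knockout difference in vehicle skin and both interactions. Its 2 residual degrees of freedom come from the vehicle pairs, so the single treated libraries were assumed to vary like these pairs. A standard error is the size of the log2 fold change over the square root of F. The fits were tested on simulated data.

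Alternatives were RLE size factors, library size only, library sizes without Gm26917, omission of the filter, a minimum count of 50, DESeq2 1.42.0, limma-voom (limma 3.58.1), 1 mean per group for all comparisons, each library left out, and the 4 vehicle libraries alone, with the replicate number as a block and without it. The vehicle pairs differed by more than sampling noise (chi-square per degree of freedom 13.8 in knockout and 31.1 in wild type) and were kept as separate libraries. Ratios of summed counts of Tchhl1 and Crnn have exact conditional binomial intervals at 95%.

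The 7 genes and all gene lists were chosen with earlier results of these data known. Always named were the 7 genes and Ddit4. From each list and treatment comparison the rule took up to 3 genes past the threshold in each direction, by smallest p. For likeness it took 3 genes per member (prior count 2), passing over names that are identifiers, begin with Gm and a number or end in Rik. The regulator list holds 1 gene under 2 symbols, so 21 of its 22 entries were in the files. Promoter windows came from RefSeq, where all 7 genes matched. Motifs were searched on both strands. Repeat shares were computed from GENCODE transcripts.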

Additional observations from a re-analysis of the deposited data

How the results depend on the processing

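The calls of Flg2, Hrnr, Rptn, Tchh and Tchhl1 with TPA, and of Flg, Hrnr, Rptn, Tchh and Tchhl1 with FA+TPA against vehicle, kept their direction and side of the threshold in every alternative that gave a value, as did Flg2 in FA+TPA against TPA. This carries no weight for Tchhl1, which entered the test through the treated libraries alone, where it is high. Of the 7 genes, the count called higher in FA+TPA against TPA was 2, but 1 with RLE size factors or without Gm26917, 3 with library size only or limma-voom and 4 without the low-count filter, and it was 1 to 2 with a library left out; the count called lower was 1, but 0 with library size only, DESeq2 or limma-voom, 2 without the filter, and 0 to 1 with a library left out. In vehicle skin 2 genes were called higher in knockout, but 0 with a minimum count of 50, 1 with limma-voom, and 1 to 2 with a library left out. For the genotype difference in the response to TPA the count called lower was 0, but 2 without the filter, 1 with DESeq2, and 0 to 3 with a library left out; for that in the effect of FA the count called higher was 0, and 1 with any vehicle library left out, which leaves 1 residual degree of freedom. With TPA, 4 to 5 genes were called higher with a library left out, and 5 to 6 with FA+TPA against vehicle. Differences that did not pass changed sign as follows, and the cause was not tested. Crnn with TPA was -0.15 with library size only and -0.17 to 0.41 with a library left out, Flg with TPA -0.21 to 1.33, Tchhl1 and Rptn in FA+TPA against TPA -0.23 to 0.97 and -2.67 to 0.14, and Flg2 in FA+TPA against vehicle -0.14 with library size only and -0.049 to 0.20 with a library left out. Over all treatments, the knockout difference of Flg was 0 with RLE size factors, -0.013 with limma-voom, -0.27 with 1 mean per group and -0.28 to 0.39 with a library left out, that of Rptn -0.086 with limma-voom, and those of Crnn and Tchhl1 -0.14 to 0.68 and -0.079 to 0.70 with a library left out. In vehicle skin, Flg2 ranged from -0.21 to 0.08, Tchh from -0.072 to 0.32 and Hrnr from -0.19 to 0.32. For the difference in the response to TPA, Flg2 was 0.029 and Tchh 0.17 with library size only, Tchh was 0.005 with a minimum count of 50 and -0.18 to 0.21 with a library left out, and Tchh was -0.047 for the effect of FA with library size only.

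The correlation of same-number deviations between the vehicle pairs was -0.0588. It rests on 1 difference per genotype, so it cannot decide whether the replicate numbers pair the samples. In vehicle libraries alone, the fit with the replicate block gave 489 genes higher and 162 lower in knockout and the fit without it 213 and 67, in place of 278 and 140, and both members kept their calls (Flg 0.85 and Rptn 2.58 with the block). Over all genes, 958 were called higher and 594 lower in knockout over all treatments without the filter, in place of 382 and 308, and 193 lower with 1 mean per group. FA+TPA against TPA gave 1289 lower without the filter, in place of 830. In vehicle skin, knockout calls were 153 and 66 with a minimum count of 50, and 79 were lower with DESeq2. For the difference in the response to TPA, 3 genes were called with library size only, 21 without the filter, 11 with DESeq2 and 0 with a minimum count of 50 or limma-voom, in place of 1; for the effect of FA, DESeq2 called 7 in place of 0. Of 100 such counts with a library left out, 46 moved by over 1.5 times. Of 240 list counts under other settings 21 did so, and 48 of 240 with a library left out.

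Depth limits Tchhl1 and Crnn, which gave no value with a minimum count of 50 or in vehicle libraries alone. A comparison whose sole library was left out gave no value, and an adjusted p that DESeq2 gave as NA was left out.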
